A study of Mus musculus with 13 samples.

Results

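The genes described here build, fold, export and dispose of proteins in the endoplasmic reticulum (ER), or sense stress in it. They are 39 genes named by function: stress sensors and their transcription factors, chaperones, disulfide isomerases, the translocon, signal peptidase, ER-associated degradation (ERAD) and the membrane protein Ckap4. Each gene was read by the brightest of its probe sets that carry 1 gene symbol, and 38 of the 39 had such a probe set, out of 18193 genes measured this way. Sec61g was left out because its probe set carries several symbols. The RNA came from EPLMs, early bone marrow progenitors with lymphoid and myeloid potential, sorted by a gate that included B220+, c-kit+ and CD93+ and left out NK1.1+ cells. The study asked how enforced OBF1, a B cell transcriptional coactivator, alters these cells. Wild-type (WT) littermates were compared with BCS mice, which carry a human OBF1 cDNA with an HA tag, driven by the immunoglobulin Eμ enhancer and a VH promoter. Both genotypes had the B6CF1 x C57BL/6 background and an age of 7 weeks, with 3 mice in each and 1 mouse per array. Which transgenic line the arrays came from is not given in the sources used here, nor is it known whether a mouse probe set reads the human cDNA, so the transgene itself was not checked.

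Proteins bound for the cell surface or for secretion enter the ER through the Sec61 translocon, are folded there by chaperones such as BiP (Hspa5) and by disulfide isomerases, and are pulled back to the cytosol for degradation when folding fails. The unfolded protein response watches this balance through IRE1 (Ern1), which splices the mRNA of Xbp1, through PERK (Eif2ak3), which favors translation of Atf4, and through ATF6, which is cleaved in the Golgi and enters the nucleus. In the B lineage, Xbp1 is best known for the expansion of the ER in plasma cells, and plasmacytoid dendritic cells also carry an extensive ER.

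In BCS EPLMs, 4 of the 38 genes rose and 5 fell. Those that rose were Ckap4, Syvn1, Mzb1 and Xbp1. Those that fell were Ern1, Atf6, Dnajb9, Herpud1 and Sec61a1. A gene was counted as higher or lower where limma's p, adjusted over all 45037 probe sets, was under 0.05. The 9 genes make up 23.7% of the 38, beside 7.83% of all 18193 genes and 12.6% of the 7748 genes with an intensity of 100 or more on every array. Only Ckap4, Syvn1, Mzb1 and Sec61a1 passed without each array in turn, and the genes that fell numbered 1, not 5, without WT 3, BCS 2 or BCS 3, and 3 without WT 1. By direction, 3.15% of all genes rose and 4.68% fell, or 5.16% and 7.49% of the brighter genes. The other 29 members did not pass. Of the 38 log2 changes 10 were positive and 28 negative, with a median of -0.11. Of all genes 51.7% had a positive change and the median was 0.01, or 54.0% and 0.03 for the brighter genes. WT and BCS values did not overlap for 22 members, with BCS mice above WT mice for 6 and below them for 16. This is 57.9% beside 28.7% of all genes, many of them dimmer than the members, and the share among the brighter genes was not counted. Group medians were at least 2-fold apart for Ckap4 and Syvn1 alone. Ckap4 is also among the genes the study picked from these same arrays, so its rise is not independent evidence. Sdc1, Lat and Pax5, given below as cell type markers, were likewise reported by the study from these arrays.

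**Figure D1:**
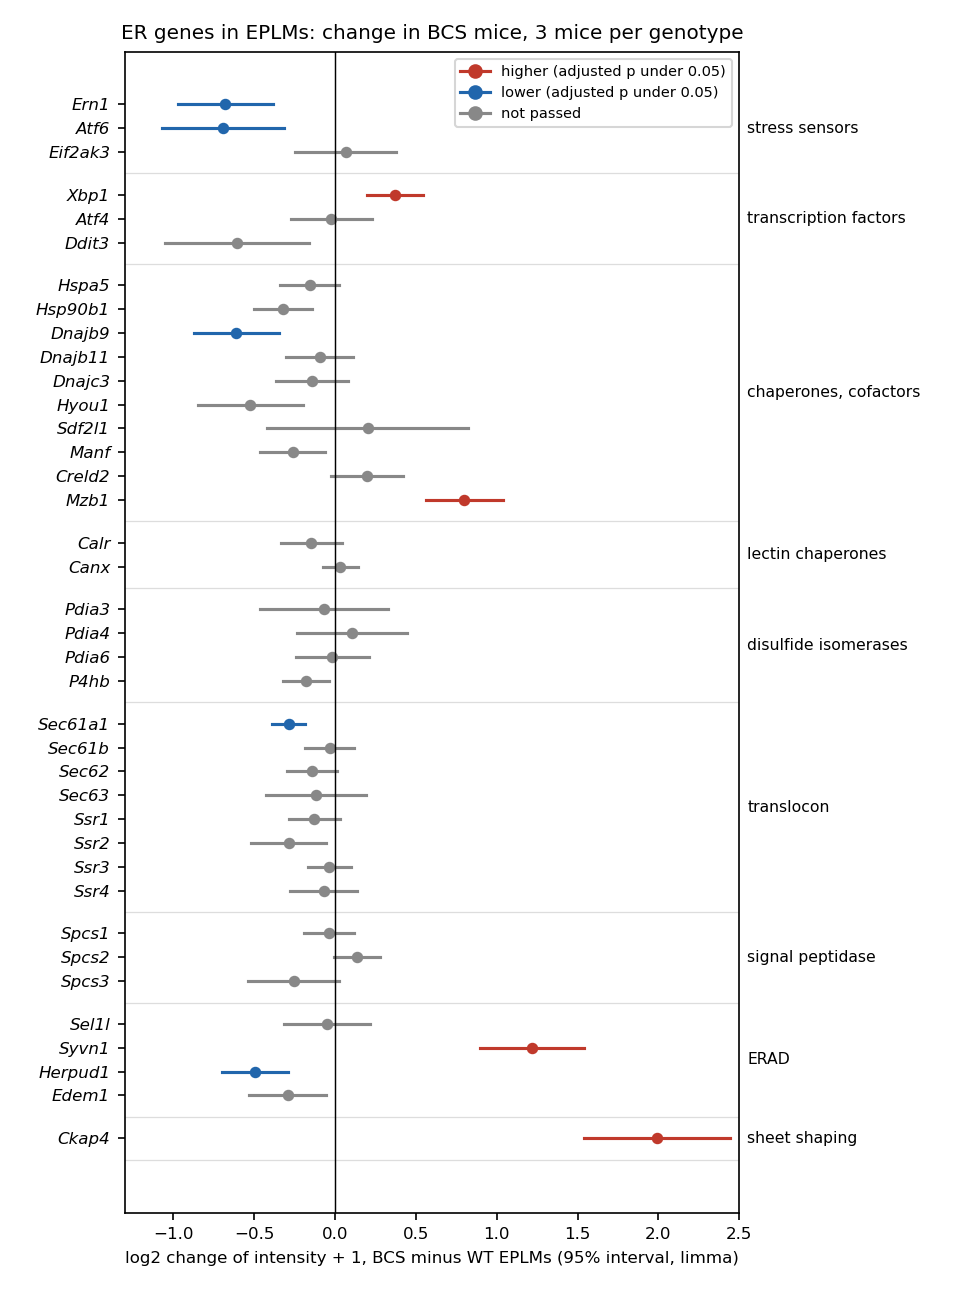
Log2 change (BCS minus WT EPLMs, horizontal axis, with 95% intervals from limma) of the 38 ER genes, grouped by role, 3 mice per genotype. The 4 genes that rose are in red, the 5 that fell in blue and the 29 that did not pass in gray. Ckap4 lies farthest to the right at 1.99, and all 8 translocon genes have negative estimates.

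The arrays were even in scale: every array had a median intensity of 20, and all 38 probe sets lay above it on every array. WT 3 had the highest value of 16 members and BCS 3 the lowest of 15. Of the sorting genes, Ptprc, the B220 gene, had a log2 change of -0.40 that passed (adjusted p = 0.0101). Kit had a log2 change of -0.01 (adjusted p = 0.983) and Cd93 one of 0.29 (adjusted p = 0.322), while Klrb1c was not analysed here. Other cell types' markers also differed between the genotypes. The plasmacytoid dendritic cell list had 14 measured genes, of which 10 fell. Klk1 fell from 2218 to 7463 in WT mice to below the array median on all 3 BCS arrays, Pacsin1, Ccr9 and Bst2 had log2 changes of -3.37, -3.29 and -2.32, and the list's summed intensity was 96560 to 108200 in WT and 48680 to 65270 in BCS mice. None of the 14 lay below the array median on all 6 arrays. Of 11 B lineage markers 7 rose, led by Vpreb3, Igll1, Cd79b and Pax5 with log2 changes of 2.27, 1.47, 1.23 and 1.12, and their sum was 67420 to 94250 in WT and 124300 to 136700 in BCS mice. Of 10 NK cell markers 2 fell, Klrd1 with a log2 change of -2.34 and Klrk1, which lay below the array median on all 3 BCS arrays, with sums of 8315 to 15250 and 1488 to 4309. Calls for Pax5 and Igll1 were lost without some arrays (adjusted p up to 0.111 and 0.0616), as was that for Vpreb3 without BCS 1 or BCS 3 (up to 0.0623). Pax5 was dim, with means of 38.8 in WT and 85.2 in BCS mice. In RNA of sorted populations, fewer cells of a type and less RNA per cell cannot be told apart, and the part of these cell types in the changes of the ER genes was not tested.

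Plasma cell markers are the list closest to a secretory program. Of the 9 measured, none rose in limma (1 at an unadjusted p under 0.05), and Sdc1 and Irf4 fell, with log2 changes of -4.88 and -1.70, the latter not without WT 1, WT 2, BCS 1 or BCS 3 (adjusted p 0.0691 to 0.0813). Prdm1, the defining factor of plasma cells, lay near the array median with means of 15.8 in WT and 14.8 in BCS mice, and Tnfrsf17 lay below it on all 6 arrays. Of the 9 changes 5 were positive and 4 negative. The summed intensity of the list was 28930 to 40290 in WT and 27300 to 37440 in BCS mice. Ighm was the largest part of this sum on each array, with means of 17430 in WT and 24040 in BCS mice. Its log2 change of 0.48 did not pass in limma (adjusted p = 0.159). The sums thus combine, among other genes, a higher Ighm mean with the fall of Sdc1, from a mean of 6740 to 225. Jchain, also in the sums, read 4985, 8422 and 4188 in WT and 3410, 11460 and 5955 in BCS mice. Its log2 change of 0.13 did not pass in limma (adjusted p = 0.912). Among the remaining lists, 1 of 12 myeloid markers fell (Csf1r, with a log2 change of -2.40), with sums of 29010 to 104100 and 10850 to 70270 that were highest on WT 2 and BCS 2. Of 9 T lineage markers 2 rose (Lat by 1.97 and Thy1 by 1.45 on the log2 scale) and Cd8a fell by 2.71. Cd8a was dim in BCS mice, with a mean of 23.1 beside 181 in WT mice. Of the 9 changes 3 were positive and 6 negative, with a median of -0.13. The sums were 749.5 to 1613 in WT and 2013 to 2718 in BCS mice, and Thy1 was their largest part on each array. The call of Thy1 was lost without WT 3, BCS 1 or BCS 2 (adjusted p 0.0508 to 0.0531). None of 8 erythroid and megakaryocyte markers passed in limma, 3 of them having an unadjusted p under 0.05, with sums of 373.6 to 3987 and 302.1 to 356.

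Promoter sequences from RefSeq (GRCm38.p6) were matched for 31 of the members, each 250 bases before and 50 after a start site, which was the annotated start of the gene for 28 of the 31. They are shown because the ER stress response element, which binds ATF6 together with NF-Y, is the textbook link between these genes. The element was searched on both strands as CCAAT, any 9 bases, then CCACG, and was present in 8 of 31 member promoters (25.8%) and in 39 of 32851 promoters in all (0.119%). Capitals mark the matched letters in the sequences below, each printed on the strand that reads CCAAT first.
Syvn1, chr19:6046520-6046562, plus strand: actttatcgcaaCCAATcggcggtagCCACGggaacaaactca
Hspa5, chr2:34772013-34772055, plus strand: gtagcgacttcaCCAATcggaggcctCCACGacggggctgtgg
Hsp90b1, chr10:86705521-86705563, plus strand: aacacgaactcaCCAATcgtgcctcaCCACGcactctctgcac
Hsp90b1, chr10:86705626-86705668, minus strand: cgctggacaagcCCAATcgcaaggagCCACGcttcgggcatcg
Dnajc3, chr14:118937815-118937857, plus strand: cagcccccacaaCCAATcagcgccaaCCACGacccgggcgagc
Pdia6, chr12:17266479-17266521, plus strand: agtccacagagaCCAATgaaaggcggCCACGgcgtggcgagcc
Calr, chr8:84847063-84847105, plus strand: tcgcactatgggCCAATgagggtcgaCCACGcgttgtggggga
Canx, chr11:50325788-50325830, minus strand: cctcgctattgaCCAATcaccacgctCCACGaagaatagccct
Creld2, chr15:88819508-88819550, minus strand: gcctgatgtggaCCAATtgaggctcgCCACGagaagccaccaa
The matches lay 26 to 212 bases before the start site used. Syvn1 was the only gene of the 8 that rose, and none of the 8 fell, with a median log2 change of -0.08. Among the 23 promoters without a match 2 genes rose and 3 fell, with a median of -0.07.

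The shorter element ERSE-II, ATTGG, any 1 base, then CCACG, shares its CCACG with the longer one and was searched after the sequences had been seen. It was present in Dnajb11 and Herpud1 (2 of 31, 6.45%) and in 12 of all promoters (0.0365%). The ATF4 composite element TTGCATCA was present in Herpud1 (1 of 31, 3.23%) and in 0.895% of all promoters. Herpud1, which fell, is shown with both, since it held 2 different elements.
Herpud1 ERSE-II, chr8:94386365-94386399, plus strand: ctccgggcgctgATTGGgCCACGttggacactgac
Herpud1 ATF4 element, chr8:94386305-94386336, plus strand: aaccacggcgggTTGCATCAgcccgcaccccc
The XBP1 element TGACGTGG, whose reverse complement also contains CCACG, was in none of the 31 windows and in 0.676% of all, and the octamer ATGCAAAT, bound by the Oct factors that OBF1 joins, was in none of the 31 and in 1.74% of all. A match is a description of the letters and not a bound site. With shares this low among all promoters, finding none in 31 windows says little. The sites that the paper describes near Id2 and Id3 are octamer-like, and an exact search can miss sites of that kind. Sequence outside these windows was not searched.

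Of the 3 sensors, 2 fell and PERK did not pass. Ern1, whose product IRE1 splices Xbp1 mRNA, had intensities of 6570, 6975 and 7878 in WT 1 to 3 and of 5466, 4086 and 3949 in BCS 1 to 3. Every BCS value lay below every WT value, with BCS 1 nearest to them. The log2 change was -0.68 (standard error 0.13, adjusted p = 0.0180), a 1.60-fold lower level. The call rests on the brightest probe set, since the other 4 were dim and did not pass, and the mean over the 5 gave -0.20 (adjusted p = 0.421). It was also lost without WT 2, WT 3, BCS 2 or BCS 3 (adjusted p 0.0536 to 0.0754), and without the intensity trend (0.0521).

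Atf6, the sensor released by Golgi proteases, read 819, 587 and 787 in WT mice and 471, 446 and 425 in BCS mice. The BCS values were tightly grouped below the lowest WT value, that of WT 2. Its log2 change was -0.69 (standard error 0.17, adjusted p = 0.0482), just inside the threshold, and it passed without WT 2 only, the adjusted p being 0.0788 to 0.169 without any other array. Another probe set of Atf6 fell by 1.05 (adjusted p = 0.0152). Eif2ak3, which encodes PERK, read 2021, 2175 and 2104 in WT and 2703, 1931 and 2038 in BCS mice. BCS 1 was above and the other BCS mice were within or below the WT range, and the log2 change was 0.07 (95% interval -0.24 to 0.38, adjusted p = 0.862). A dim probe set of Eif2ak3, below the array median on 3 of 6 arrays, rose by 0.54 on the log2 scale (adjusted p = 0.0385).

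Downstream of the sensors, Xbp1 rose while Atf4 and Ddit3 did not pass. Xbp1 encodes the factor that drives ER chaperone and ERAD genes once its mRNA is spliced, and the arrays do not separate spliced from unspliced mRNA. Its intensities were 12400, 12830 and 12400 in WT and 18320, 15710 and 14880 in BCS mice. WT mice were nearly equal and all BCS mice were higher, BCS 1 most. The log2 rise of Xbp1 was 0.37 (standard error 0.08, adjusted p = 0.0237), or 1.29-fold. Of its 4 probe sets 3 rose (0.37, 0.53 and 0.59), and the dim one had a change of 0.34 (adjusted p = 0.411). Without WT 1, WT 2, WT 3 or BCS 2 the brightest probe set no longer passed (adjusted p 0.0604 to 0.0852), nor did it without the intensity trend (0.102).

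Atf4, the factor of the PERK arm, is set largely by translation. It read 7764, 9053 and 10370 in WT and 7989, 9563 and 9087 in BCS mice, which overlapped throughout (log2 change -0.02, adjusted p = 0.948). Ddit3, which encodes the death-associated factor CHOP, was dim, at 91.7, 121 and 99.5 in WT and 67.1, 58.2 and 79.0 in BCS mice. All BCS values were below the WT values, but the log2 change of -0.61 did not pass (95% interval -1.05 to -0.16, adjusted p = 0.130).

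Of 10 chaperones and cofactors, 1 rose and 1 fell. Mzb1, a chaperone that aids the assembly of immunoglobulin heavy chains in B cells, read 4476, 5716 and 4445 in WT and 8942, 8110 and 8288 in BCS mice. The lowest BCS mouse was well above the highest WT mouse. It rose by 0.80 in log2 units (standard error 0.11, adjusted p = 0.00285), or 1.74-fold, from its single probe set, and passed without each array in turn (adjusted p 0.00104 to 0.0139). Dnajb9, a BiP cochaperone that holds IRE1 inactive, moved the other way. It read 5292, 4845 and 6328 in WT and 3867, 3656 and 3226 in BCS mice, without overlap. It fell by 0.61 (standard error 0.12, adjusted p = 0.0176), or 1.53-fold, a call lost without WT 3, BCS 2 or BCS 3 (adjusted p 0.0555 to 0.0655).

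The abundant chaperones did not pass. Hspa5, which encodes BiP, the chaperone that keeps the sensors inactive, read 24720, 20300 and 24150 in WT and 20930, 21800 and 19150 in BCS mice, with WT 2 inside the BCS range (log2 change -0.16, 95% interval -0.34 to 0.02, adjusted p = 0.352). Hsp90b1, which encodes GRP94, lay just outside the threshold. Its intensities were 22410, 19530 and 22900 in WT and 18940, 17130 and 15860 in BCS mice, without overlap, and its log2 change was -0.32 (95% interval -0.50 to -0.14, adjusted p = 0.0544). It passed without WT 2 (adjusted p = 0.0315) or BCS 1 (0.0315), and with array weights or after dim probe sets were removed (0.0351 and 0.0347). Hyou1, a nucleotide exchange factor for BiP, read 757, 746 and 866 in WT and 548, 602 and 499 in BCS mice. These did not overlap either, and the log2 change was -0.52 (95% interval -0.85 to -0.20, adjusted p = 0.0775), passing without the intensity trend (0.0448) or after the removal of dim probe sets (0.0307). Manf, a secreted ER stress protein, had a log2 change of -0.26 (adjusted p = 0.151, and 0.0410 without WT 2). The remaining 4, Dnajb11, Dnajc3, Sdf2l1 and Creld2, had log2 changes of -0.10, -0.14, 0.20 and 0.20.

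**Figure D2:**
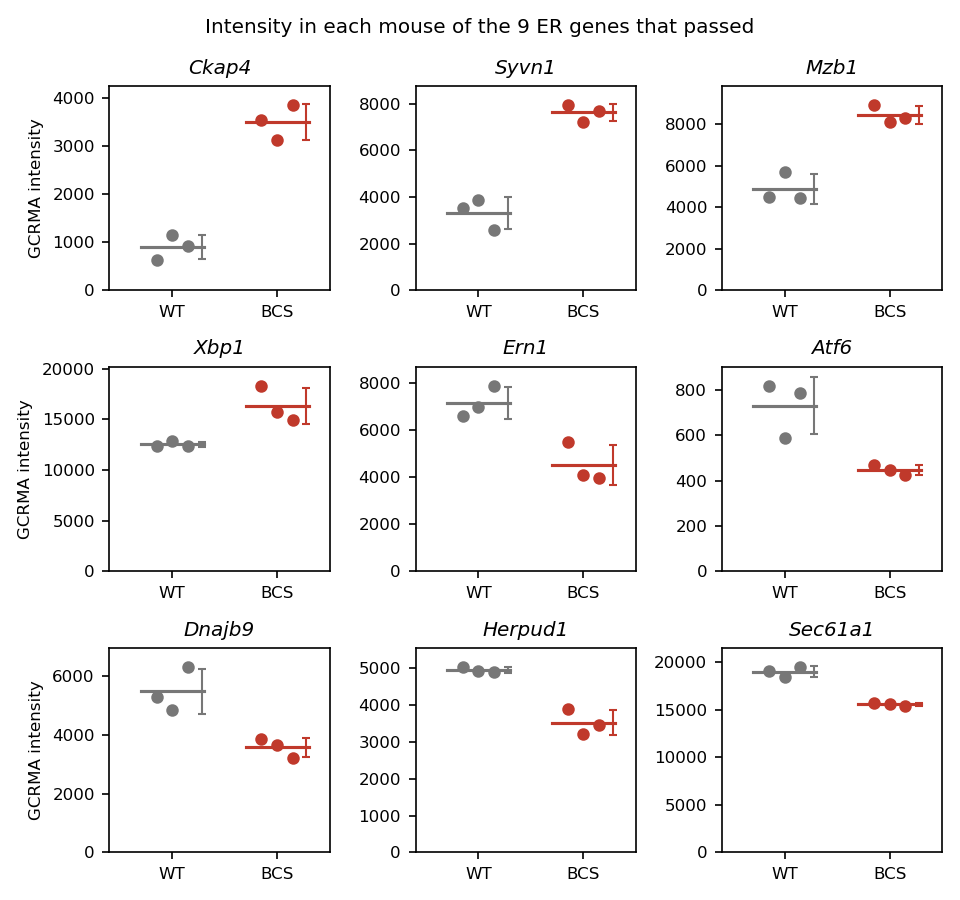
GCRMA intensity in each mouse (points, vertical axis from 0) of the 9 ER genes that passed, with the mean (line) and SD (bar) of 3 WT and 3 BCS mice. For each gene the 3 values of one genotype lie wholly above those of the other, as for Syvn1 at 2573 to 3889 in WT and 7227 to 7964 in BCS mice.

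None of the 2 lectin chaperones or the 4 disulfide isomerases passed in limma, with P4hb alone having an unadjusted p under 0.05. Calr and Canx, the lectin chaperones of glycoproteins, had log2 changes of -0.15 and 0.03, and Canx, at 23990 in WT and 24570 in BCS mice, had a 95% interval of -0.07 to 0.14. Pdia3, Pdia4 and Pdia6, enzymes that form and shuffle disulfide bonds, had changes of -0.07, 0.11 and -0.02 with overlapping values. P4hb, the classical protein disulfide isomerase, did not overlap between the genotypes and had a change of -0.18 (95% interval -0.32 to -0.04, adjusted p = 0.164).

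All 8 measured translocon genes had negative changes, and 1 of them fell. Sec61a1, the pore-forming subunit, read 19040, 18480 and 19540 in WT and 15710, 15590 and 15440 in BCS mice. Mice of a genotype were close to each other, and the gap between genotypes was far wider than the spread within them. It fell by 0.29 (standard error 0.04, adjusted p = 0.00680), or 1.22-fold, and passed without each array in turn (adjusted p 0.0156 to 0.0385). All 6 of its probe sets had negative changes of -0.27 to -0.49, but only the brightest passed, and the mean over them, -0.35, did not (adjusted p = 0.0577). Without the intensity trend the adjusted p was 0.0970.

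Other translocon genes had estimates of no more than the same size, and 4 of them turned positive under an alternative, Sec61b without WT 3 (0.01), Ssr4 without BCS 1 (0.0047), and Sec62 and Sec63 with another probe set (0.09 and 0.27). Sec61b, the small tail-anchored subunit, had a log2 change of -0.03, and Sec62 and Sec63, which assist post-translational import, of -0.14 and -0.12. The translocon-associated protein subunits Ssr1, Ssr2, Ssr3 and Ssr4 had changes of -0.13, -0.29, -0.03 and -0.07, of which Ssr2 came nearest to passing (adjusted p = 0.169). A dimmer probe set of Ssr1, with means of 190 and 89.9, fell by 1.05 (adjusted p = 0.0212), while its next brightest had a change of 0.32 (adjusted p = 0.562). The signal peptidase subunits Spcs1, Spcs2 and Spcs3, which belong to the enzyme that cuts signal peptides behind the translocon, had changes of -0.03, 0.14 and -0.26, and none passed in limma, nor had any an unadjusted p under 0.05.

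The 4 ERAD genes went both ways. Syvn1 encodes HRD1, the ubiquitin ligase at the center of the retrotranslocation complex. It read 3512, 3889 and 2573 in WT and 7964, 7227 and 7690 in BCS mice. BCS mice were alike and far above all WT mice, of which WT 3 was lowest. The log2 change of Syvn1 was 1.22 (standard error 0.14, adjusted p = 0.00141), or 2.33-fold, and its other probe set rose by 1.42 (adjusted p = 0.000788). The call held without each array in turn (adjusted p 0.00123 to 0.00878).

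Herpud1 encodes a membrane protein that joins HRD1 complexes, and it fell. Its values were 5042, 4916 and 4889 in WT and 3882, 3226 and 3460 in BCS mice, again without overlap. The log2 change was -0.49 (standard error 0.09, adjusted p = 0.0145), or 1.41-fold lower, and the call was narrowly lost without WT 1, WT 3, BCS 2 or BCS 3 (adjusted p 0.0522 to 0.0551). Its second probe set had a change of -0.65 (adjusted p = 0.0583). Sel1l, the partner that stabilizes HRD1, had a log2 change of -0.05 with overlapping values (95% interval -0.32 to 0.22), and Edem1, a mannosidase-like protein that marks glycoproteins for disposal, had one of -0.29 without overlap (adjusted p = 0.174).

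Ckap4, known as CLIMP-63, spaces the membranes of ER sheets and binds microtubules. It read 638, 1140 and 926 in WT and 3537, 3115 and 3857 in BCS mice. The lowest BCS mouse was well over the highest WT mouse. Its log2 change was 1.99 (standard error 0.20, adjusted p = 0.000651), or 3.98-fold. All 4 of its probe sets rose, by 1.99 to 2.45, and the call held without each array in turn (adjusted p 0.000742 to 0.00501).

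**Figure D3:**
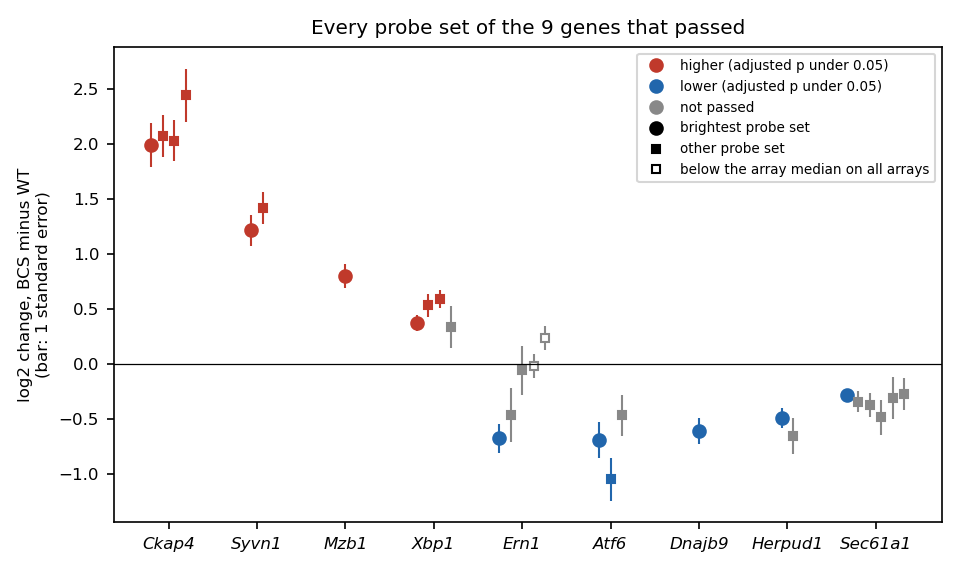
Log2 change (BCS minus WT EPLMs, bars 1 standard error) of every probe set with 1 symbol for the 9 ER genes that passed. Large circles mark the brightest probe set, and open symbols probe sets below the array median on all 6 arrays. All 4 probe sets of Ckap4 and both of Syvn1 rose, whereas only the brightest of the 5 for Ern1 fell.

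Across every probe set of the members, 100 in all, 11 rose and 7 fell, beside 2.24% of all 45037 probe sets that rose, 3.25% that fell and 5.49% in either direction. Several of these probe sets read the same gene. Those that rose belong to Ckap4, Xbp1, Syvn1, Mzb1 and Eif2ak3. Those that fell belong to Ern1, Atf6, Dnajb9, Sec61a1, Ssr1 and Herpud1. Within the 38 brightest, the members ordered by change ran from Atf6 at -0.69 to Ckap4 at 1.99. The median deviation of the members from their mean over 6 arrays was 0.02 to 0.07 on the 3 WT arrays and -0.07 to -0.04 on the 3 BCS arrays.

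**Figure D4:**
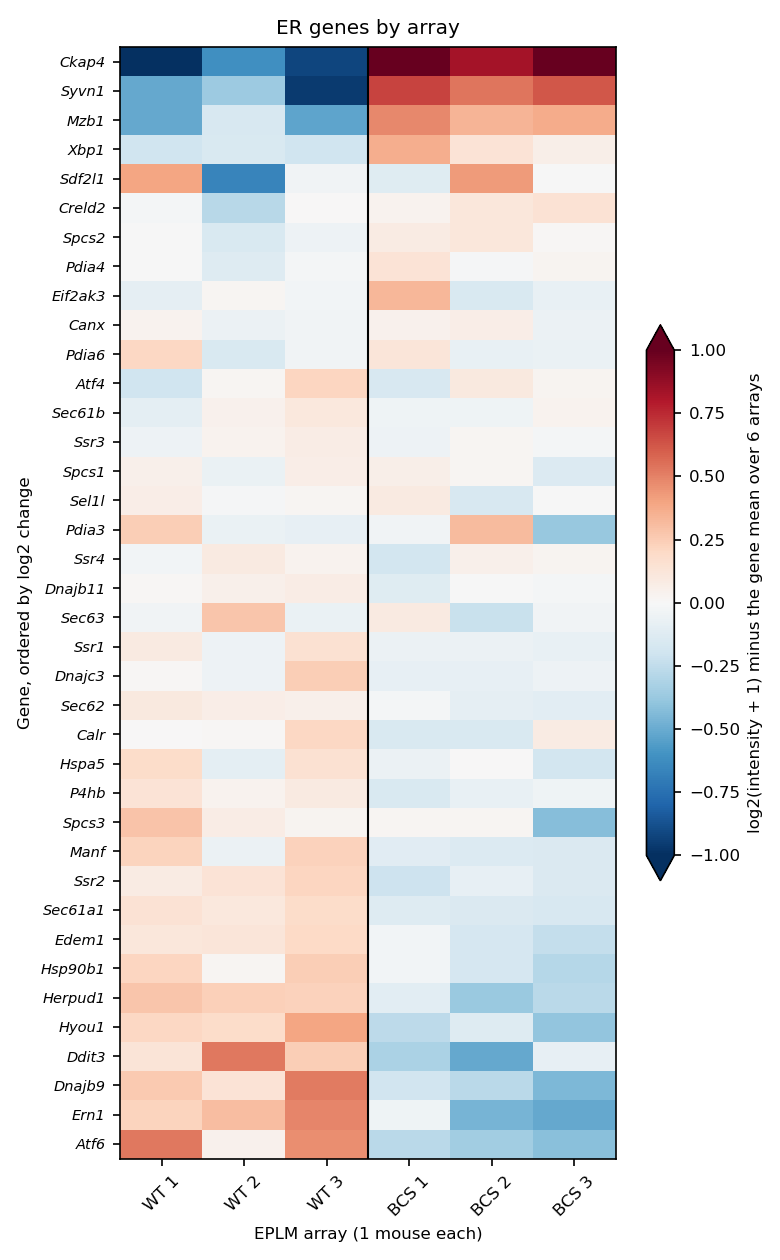
Log2(intensity + 1) of the 38 ER genes minus each gene's mean over 6 arrays, 1 column per mouse, ordered by log2 change. Colors saturate at 1 and -1, which Ckap4 reaches. WT 3 holds the highest value of 16 genes and BCS 3 the lowest of 15.

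Further genes were read from 8 lists, of the secretory pathway, of stress responses and of chaperones outside the ER. They are described by counts beside the 3.15% of all genes that rose and the 4.68% that fell. Among genes with an intensity of 100 or more on every array, these shares were 5.16% and 7.49%. Of 16 genes of oxidative folding outside the members, 4 fell and none rose in limma (1 at an unadjusted p under 0.05), with a median log2 change of -0.18. Pdia5, a disulfide isomerase, fell by 1.97, from 847 ± 178 to 215 ± 40.6 (SD, n = 3 each). Erp29, an ER chaperone of the thioredoxin fold, fell by 0.90 and Sil1, an exchange factor of BiP, by 0.67, while Ppib, the ER cyclophilin B, fell by 0.24. Of 17 further ERAD genes 1 rose and 2 fell, with a median of 0.03. Ube2j1, a ubiquitin-conjugating enzyme of ERAD, rose by 0.56, while Edem2, which trims mannose from misfolded glycoproteins, fell by 1.14 and Selenos, a selenoprotein of the ERAD complex, by 0.67. The call of Sil1 was lost without WT 2, WT 3 or BCS 2 (adjusted p up to 0.0671) and that of Ppib without any array but BCS 3 (up to 0.139), while Pdia5, Erp29, Ube2j1, Edem2 and Selenos passed without each array in turn.

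Among 19 genes of oligosaccharyltransferase and glycan trimming, Dad1 and Magt1, both subunits of the transferase, fell by 0.38 and 0.36, with a median of -0.18. In the list of 19 genes of targeting and translocation, only Sec16a passed, which organizes ER exit sites and not entry into the ER. It fell by 0.46, the other 18 did not pass, and the list had a median of -0.01. The 28 genes of COPII and COPI transport had 23 negative changes and a median of -0.11, and Tmed10, a cargo receptor, fell by 0.27. These 4 calls were lost without at least 4 of the 6 arrays, Dad1 without each of them (adjusted p 0.0744 to 0.133), Magt1 without WT 1, WT 3, BCS 2 or BCS 3 (up to 0.0992), and Sec16a and Tmed10 without any array but BCS 1 (up to 0.140 and 0.0801).

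In the list of 18 other regulators and outputs of the unfolded protein response, 4 fell and none rose in limma (4 at an unadjusted p under 0.05), with a median of -0.25. They were Nucb2, a calcium-binding protein, by 1.44, Wfs1, the ER membrane protein wolframin, by 1.39, Map3k5, the kinase ASK1 that acts behind IRE1, by 0.56, and Tmbim6, Bax inhibitor 1, by 0.43. The calls of Map3k5 and Tmbim6 were lost without 5 of 6 arrays (adjusted p up to 0.108 and 0.107), the exceptions being BCS 3 and BCS 1.

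The integrated stress response, the shared program of kinases that includes PERK, had 4 genes that rose and 1 that fell among 23, with a median of 0.07. Trib3, a pseudokinase target of ATF4, rose by 1.40 from 30.5 ± 10.2 to 80.0 ± 8.52 (SD, n = 3 each), a dim level. Shmt2 and Phgdh, enzymes of serine and one-carbon metabolism, rose by 0.70 and 0.38, and Ppp1r15b, a phosphatase subunit that reverses the response, by 0.39. Cebpb, a C/EBP factor, fell by 1.37 from 89.2 ± 20.75 to 34.1 ± 8.94 (SD, n = 3 each), also a dim level. Calls for Shmt2, Phgdh and Ppp1r15b were each lost without WT 3, BCS 2 or BCS 3, and also without WT 2 for the first pair and without WT 1 for Ppp1r15b (adjusted p up to 0.0718, 0.0848 and 0.0990).

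Chaperones of the cytosol and mitochondria, which are no part of the ER, had 20 positive changes of 22 and a median of 0.21. The 3 that rose, Cct8 by 0.38, Cct7 by 0.29 and Cct5 by 0.27, are subunits of the chaperonin that folds actin and tubulin. Without at least 4 of the 6 arrays each of the 3 no longer passed, Cct7 without any but WT 1, Cct5 and Cct8 without any but WT 1 and BCS 1 (adjusted p up to 0.148, 0.0795 and 0.0757). The difference between this list and the ER genes was not tested.

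**Figure D5:**
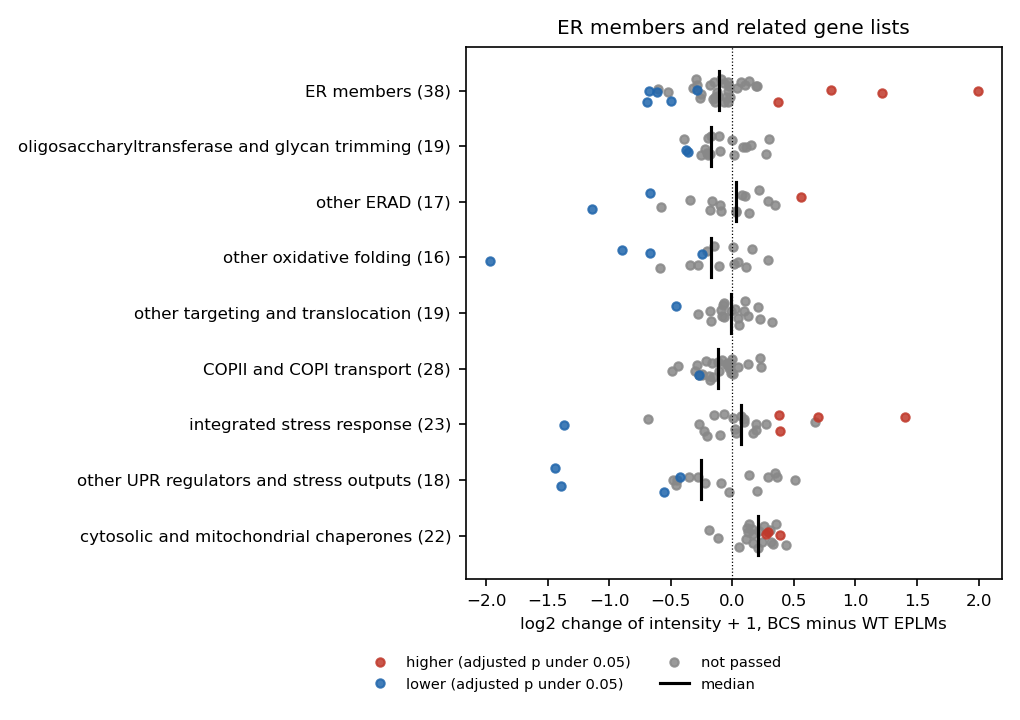
Log2 change (BCS minus WT EPLMs) of each gene (points) in the 38 ER genes and 8 related lists, with the number of genes in parentheses and the median as a black line. Medians run from -0.25 for other regulators of the unfolded protein response to 0.21 for cytosolic and mitochondrial chaperones, and the 38 ER genes have a median of -0.11.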

How the data were processed

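Sorted EPLM RNA of 3 WT and 3 BCS mice, 1 mouse per array, was hybridized to Mouse 430v2 GeneChips. The labels give a labelling of 1 cycle and the methods 2 cycles. What the authors deposited is GCRMA-normalized intensity, not yet in logs, 1 column per array, and the methods name Expressionist for the analysis. The GCRMA version is not given in the sources used here. Log2(intensity + 1) entered limma 3.58.1 under R 4.3.3 (lmFit, then eBayes with trend), and p was adjusted by Benjamini-Hochberg over 45037 probe sets, without 64 control features. Symbols came from the platform annotation, in which 34945 probe sets have 1 symbol, 932 several and 9160 none. Fold changes are on the scale of intensity + 1, so they understate changes of dim genes. No depth exists for arrays, and their number limits the precision.

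The members, roles and gene lists were chosen with earlier results of these data known. Named are all members, in each list the passing genes of largest change, 4 at most, and the genes of the sorting gate. Phgdh, Prdm1, Tnfrsf17, Ighm and Jchain, outside this rule, were named after their values were seen. Some lists hold a gene in common: Derl3 is in the ERAD and plasma cell lists and Ero1a in those of oxidative folding and of other regulators. Alternatives were the methods' t-test, other variance models, filters, scalings, offsets, probe set rules, thresholds, the replicate block and leaving out arrays. The large preB2 arrays were not used, because their values do not follow the row names: the correlation of mean levels between the cell types was r = 0.0944 across 45037 probe sets and r = 0.978 across the control features. Genes without a probe set of 1 symbol and the proteins' sequences are not analysed here. Some further items are not reported here.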

Additional observations from a re-analysis of the deposited data

How the results depend on the processing

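Without each array in turn, 3 to 4 members rose and 1 to 6 fell, and of all probe sets 517 to 926 rose and 875 to 1315 fell (4, 5, 1007 and 1465 with all arrays). The members that fell were 3 without WT 1 and 1 without WT 3, BCS 2 or BCS 3. Leaving out replicate 2 of both genotypes, chosen after seeing the data for the myeloid sums, left 3 members higher and 0 lower in limma, with 420 and 588 probe sets. By the methods' t-test adjusted by Benjamini-Hochberg, 0 members rose and 0 fell (4 and 12 at an unadjusted p under 0.05), with 114 and 153 probe sets. At the methods' thresholds, unadjusted, 2 members rose and 0 fell, with 299 and 576 probe sets. Adding a 2-fold minimum to limma's calls gave 2 and 0, with 421 and 757, and an adjusted p under 0.01 gave 3 and 1, with 363 and 694. The mean over probe sets gave 3 lower members. With the replicate block 4 members rose and 4 fell, with 741 and 1179 probe sets, Atf6 being lost (adjusted p = 0.0835). Equal numbers mark separate mice, and same-numbered arrays deviated with r of -0.0546, -0.0299 and 0.147. Quantile normalization, centring, robust variances and an offset of 16 each gave 4 and 5, the fit without trend 3 and 4, and the removal of dim probe sets 4 and 7. Of 797 values for single members, 701 kept their direction and side of the threshold, 62 no longer passed, 9 newly passed and 25 changed sign, in 13 members, 0 of which passed before or after. Without 1 array in turn the log2 change ran from -0.081 to 0.16 for Eif2ak3, -0.13 to 0.079 for Atf4, -0.079 to 0.45 for Sdf2l1, -0.24 to 0.11 for Pdia3, -0.095 to 0.086 for Pdia6, -0.090 to 0.012 for Sec61b, -0.114 to 0.0047 for Ssr4, -0.076 to 0.023 for Spcs1 and -0.11 to 0.017 for Sel1l. Without replicate 2 of both genotypes it was -0.24 for Sdf2l1, -0.0092 for Canx and 0.078 for Sec63. The mean over probe sets and the most variable probe set gave 0.12 and 0.26 for Pdia6, 0.033 and 0.087 for Sec62, 0.0046 and 0.072 for Spcs1, and -0.012 and -0.16 for Spcs2, and the latter 0.27 for Sec63. Ckap4 and Syvn1 lost theirs under the methods' t-test alone. Intensities near the array median of 20 carry little signal over background.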
